A study of Mus musculus with 12 samples.

Results

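Glucose uptake and glycolysis were followed through 10 genes: the glucose transporters Slc2a1 and Slc2a3, the hexokinases Hk1 and Hk2, and the later enzymes Pfkl, Aldoa, Gapdh, Pgk1, Eno1 and Ldha. They are a list of named genes, 10 of the 23234 genes and short RNAs in the table, and no threshold on measured values set the list. All 10 were listed, and 9 averaged 1 FPKM or more (fragments per kilobase of transcript, scaled to the library's total, so that levels compare between genes) over the 12 libraries. Those 9 were among the 10780 features tested, and Hk2 fell below that level.

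The sample labels give the cells as CD24hiTCRβlo CD4+CD8+ thymocytes of C57BL/6 mice, the stage before selection on the T cell receptor, and the study's RNA-seq methods name no gate. Its results describe the Bcl11bm/m cells used for RNA-seq as pre-selection thymocytes, as the labels do. The extraction protocol attached to the same samples instead describes sorted NKT cells that lack CD4 and CD8, a mismatch that no source explains. The 12 libraries comprised 5 from wild-type newborns, 3 from newborns homozygous for the Bcl11bm allele (Bcl11bm/m), and 4 from Bcl11bfl/fl:Cd4-Cre mice, which the titles call cKO and whose age the labels do not give. Bcl11b is a zinc finger transcription factor of T cell development. The m allele carries a frameshift, its product lacks the final zinc finger, and it is regarded as a hypomorph. In cKO mice the Cd4 promoter drives Cre, so that floxed Bcl11b is lost only once cells reach the CD4+CD8+ stage. These genotypes follow the sample titles and the deposit's design, which the free-text descriptions contradict. The descriptions name Bcl11bm/m for the samples titled wild-type as well as for those titled HM, and Bcl11b+/+ for those titled cKO. Read by the descriptions, the first comparison would have 1 genotype on both sides and the difference between cKO and wild-type would change direction. No source says that replicates were separate animals, so p-values measure the spread between these libraries.

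The defining genes of the labelled stage were abundant, with Cd4 at 281 to 651 FPKM, Cd8a at 591 to 1054 FPKM and Rag1 at 438 to 1564 FPKM over the 12 libraries. Bcl11b was at 132 to 292 FPKM in wild-type, 430 to 482 FPKM in Bcl11bm/m and 115 to 140 FPKM in cKO libraries. It was higher in Bcl11bm/m than in wild-type (log2 difference 1.10, limma adjusted p = 0.0279). In cKO libraries the difference from wild-type was -0.68 (adjusted p = 0.0828) and the groups overlapped. A value over the whole gene does not separate deleted from retained exons, and therefore did not check the labels. Depth, estimated from the spacing of low FPKM values, was 2720000 to 6810000 fragments in wild-type and Bcl11bm/m libraries and 10750000 to 45050000 in cKO libraries, so that depth and that genotype cannot be told apart. The cKO mice, of unstated age, may also differ in age from the newborn groups. Any effect of age in cKO against wild-type likewise cannot be told apart from genotype.

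Glycolysis splits a glucose molecule into pyruvate in the cytosol and yields ATP and NADH. Glucose enters through facilitative transporters of the Slc2a family, hexokinases trap it as glucose-6-phosphate, and lactate dehydrogenase regenerates NAD+ by turning pyruvate into lactate. In the thymus, cycling blasts are known for high glucose use, whereas small CD4+CD8+ cells awaiting selection are largely quiescent. Many genes of the pathway are known targets of hypoxia-inducible factor and of Myc.

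Of the 10 genes, Gapdh and Eno1 were lower in Bcl11bm/m than in wild-type libraries, and Gapdh was lower in cKO libraries. Pgk1, both transporters, Hk1, Pfkl, Aldoa and Ldha passed the test in none of the 3 comparisons, and Hk2 was not tested. Beyond the members, Bcl11bm/m libraries had less Ldhb and Pfkp and more Pkm2 than wild-type.

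In wild-type libraries the mean levels ran, from highest to lowest, Gapdh, Ldha, Eno1, Pgk1, Aldoa, Hk1, Pfkl, Slc2a1, Slc2a3 and Hk2. The mean was 658 FPKM ± 163 (SD, n = 5) for Gapdh and 0.349 FPKM ± 0.229 for Hk2. Of the 9 neighbouring pairs in this order, the wild-type ranges were separate for Gapdh over Ldha, Hk1 over Pfkl, Slc2a1 over Slc2a3 and Slc2a3 over Hk2, and overlapped for the others. Within single libraries the order held in 12 of 12 for every neighbouring pair except Pgk1 over Aldoa and Pfkl over Slc2a1, each in 6 of 12. Pgk1 was above Aldoa in 5 of 5 wild-type, 0 of 3 Bcl11bm/m and 1 of 4 cKO libraries.

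**Figure D1:**
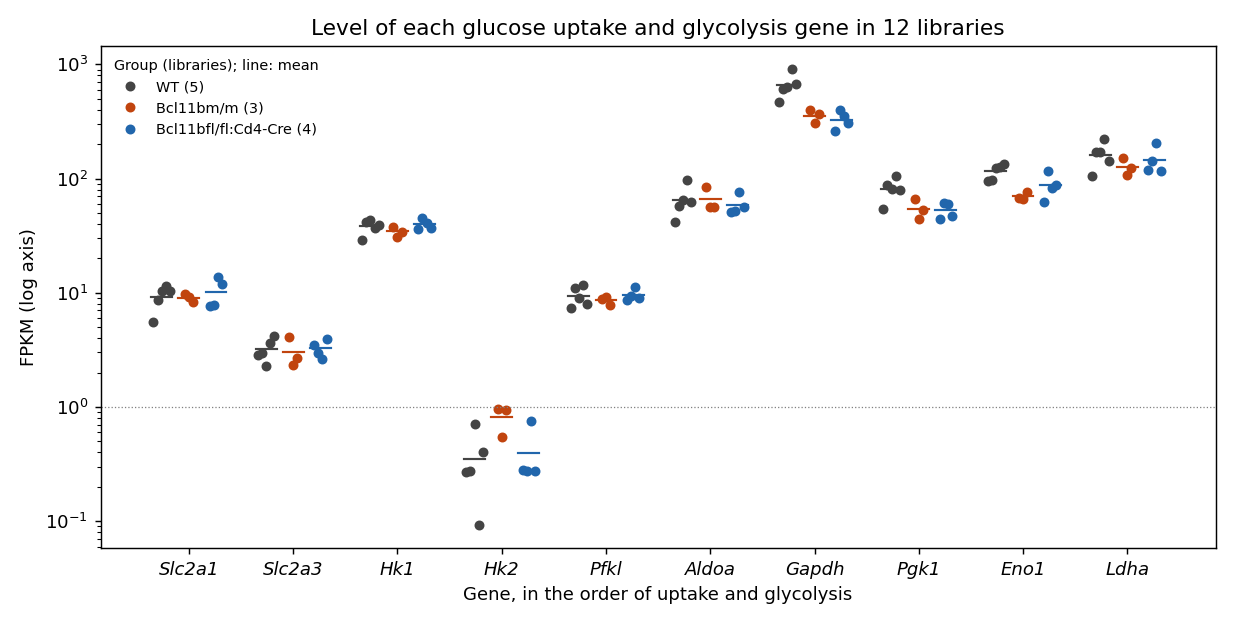
FPKM (log axis) of the 10 genes in each of the 12 libraries, with points for libraries, short lines for group means and a dotted line at 1 FPKM. Gapdh lies at 463 to 914 FPKM in wild-type libraries and at 259 to 395 FPKM in all mutant libraries, while the groups overlap for the transporters, Hk1, Pfkl, Aldoa and Ldha.

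The transporters bring glucose across the plasma membrane. Slc2a1 (chromosome 4, 118781316 to 118809935 on NCBIM37, plus strand) encodes GLUT1, the transporter that activated T cells induce. Its levels were 5.52, 8.59, 10.3, 11.5 and 10.3 FPKM in wild-type replicates 1 to 5. They were 9.72, 9.10 and 8.37 FPKM in Bcl11bm/m and 7.60, 7.87, 13.7 and 11.8 FPKM in cKO libraries. All Bcl11bm/m values lay within the wild-type range, and the difference of log2(FPKM + 1) was 0.01 (95% interval -0.48 to 0.50, adjusted p = 0.989). For cKO against wild-type it was 0.13 (95% interval -0.38 to 0.64, adjusted p = 0.735).

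Slc2a3 (chromosome 6, 122677827 to 122751658, minus strand) encodes GLUT3, a transporter of high affinity. It was the lower of the pair in 12 of 12 libraries, at 2.27 to 4.2 FPKM (median 2.97) in wild-type, 4.09, 2.32 and 2.70 FPKM in Bcl11bm/m and 3.50, 2.95, 2.63 and 3.96 FPKM in cKO libraries. Both mutant groups lay inside the wild-type range. The log2 differences from wild-type were -0.06 in Bcl11bm/m (95% interval -0.51 to 0.39) and 0.03 in cKO libraries (95% interval -0.33 to 0.40). The difference of log2(FPKM + 1) between Slc2a3 and Slc2a1 within a library averaged -1.27 ± 0.382 (SD, n = 5) in wild-type and -1.34 ± 0.265 (n = 3) in Bcl11bm/m libraries (exact permutation test, two-sided, p = 0.821).

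Hexokinases phosphorylate glucose and so hold it in the cell. Hk1 (chromosome 10, 61731603 to 61842656, minus strand) was the main form, with 28.9, 41.4, 43.3, 37.1 and 39.5 FPKM in wild-type libraries. Bcl11bm/m libraries had 38.0, 30.9 and 34.3 FPKM and cKO libraries 36.0, 45.2, 40.7 and 37.3 FPKM. The groups overlapped, with log2 differences from wild-type of -0.13 (SE 0.146, adjusted p = 0.595) and 0.07 (SE 0.135, adjusted p = 0.758).

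Hk2 (chromosome 6, 82675019 to 82724448, minus strand), the inducible form of growing cells, was under 1 FPKM in every library. The values were 0.271, 0.274, 0.708, 0.0919 and 0.403 FPKM in wild-type and 0.964, 0.548 and 0.934 FPKM in Bcl11bm/m libraries. In cKO libraries they were 0.278, 0.274, 0.750 and 0.277 FPKM. Replicates 1 and 3 of Bcl11bm/m were above all other libraries, and the remaining one lay inside the wild-type range. Hk2 took no part in the main test. Without the filter on low values its difference between Bcl11bm/m and wild-type was 0.44 (adjusted p = 0.1297). Hk1 exceeded Hk2 by 61.1 to 404 times in wild-type, 36.7 to 56.4 times in Bcl11bm/m and 54.3 to 165 times in cKO libraries. As a difference of log2(FPKM + 1), which raises values under 1 FPKM, Hk2 minus Hk1 was higher in all Bcl11bm/m than in all wild-type libraries (-4.29 ± 0.0892, n = 3, against -4.86 ± 0.239, n = 5). The groups differed by 0.57 on this scale and by 1.28 with a pseudocount of 0.1. The exact permutation p was 0.0357, the smallest that 3 against 5 libraries allow, and 0.129 after adjustment over the 9 ratio tests.

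Pfkl, the liver-type phosphofructokinase that commits sugar phosphates to glycolysis, lies on chromosome 10 from 77449692 to 77472828 on the minus strand. It stayed within 7.39 to 11.8 FPKM in all 12 libraries. The values were 7.39, 11.02, 8.97, 11.8 and 7.95 FPKM in wild-type, 8.84, 9.17 and 7.87 FPKM in Bcl11bm/m and 8.61, 9.29, 11.3 and 8.93 FPKM in cKO libraries. Both mutant groups lay inside the wild-type range, and the log2 differences were -0.10 (95% interval -0.49 to 0.29) and 0.03 (95% interval -0.31 to 0.37).

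Aldoa (chromosome 7, 133938748 to 133944265, minus strand) encodes the aldolase that cleaves fructose bisphosphate. It was at 41.8, 57.9, 64.4, 96.8 and 61.8 FPKM in wild-type, 84.8, 56.4 and 56.7 FPKM in Bcl11bm/m and 51.0, 51.7, 76.1 and 56.5 FPKM in cKO libraries. Wild-type replicate 4 was the highest library and wild-type replicate 1 the lowest. The log2 differences were 0.06 (SE 0.258) and -0.10 (SE 0.221), with adjusted p = 0.916 and 0.798 by limma.

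Gapdh (chromosome 6, 125111871 to 125116485, minus strand, up to 7 exons) encodes the dehydrogenase that opens the ATP-yielding stage and reduces NAD+. In wild-type replicates 1 to 5 it was at 463, 613, 631, 914 and 667 FPKM. Bcl11bm/m replicates had 395, 305 and 368 FPKM, and cKO replicates 259, 394, 350 and 306 FPKM. Every mutant library was below every wild-type library. The group means were 658 ± 163 (SD, n = 5), 356 ± 46.1 (n = 3) and 327 ± 57.9 (n = 4) FPKM. The log2 difference was -0.86 in Bcl11bm/m (SE 0.226, 95% interval -1.38 to -0.34, adjusted p = 0.0339) and -0.99 in cKO libraries (SE 0.209, 95% interval -1.45 to -0.52, adjusted p = 0.0142). With median-ratio scaling between libraries the differences were -0.86 (adjusted p = 0.00409) and -0.88 (adjusted p = 0.00664).

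The Gapdh call in Bcl11bm/m was lost when wild-type replicate 2, 3 or 5 or any Bcl11bm/m replicate was left out (adjusted p = 0.0664 to 0.147), and without a filter on low values (adjusted p = 0.0566). The call in cKO libraries was lost without their replicate 1 (adjusted p = 0.0546). In these fits the log2 difference stayed between -0.98 and -0.73 for Bcl11bm/m and between -1.11 and -0.86 for cKO libraries. The Gapdh coding sequence has 54 further matches in the mouse genome at 90% identity or more, and reads may have been divided among them. The listed copy Gm12070 had 152, 210, 264, 355 and 232 FPKM in wild-type, 175, 125 and 147 FPKM in Bcl11bm/m and 86.6, 129, 117 and 101 FPKM in cKO libraries. Summed with Gm12070, Gapdh differed from wild-type by -0.80 in Bcl11bm/m (adjusted p = 0.0591) and by -1.02 in cKO libraries (adjusted p = 0.0153).

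As a share of the summed FPKM of the 10 genes, which no scaling factor between libraries alters, Gapdh took 55.4 to 59.8% in wild-type, 47.8 to 50.3% in Bcl11bm/m and 41.6 to 47.5% in cKO libraries. The 3 groups did not overlap in this description, although the lowest Bcl11bm/m share (47.8%) and the highest cKO share (47.5%) were close. The Gapdh level itself was not called between the mutants (log2 difference 0.13, limma adjusted p = 0.664). Without Gapdh the sum of the other 9 genes was 341 to 613 FPKM in wild-type, 324 to 432 FPKM in Bcl11bm/m and 332 to 490 FPKM in cKO libraries, and these ranges overlapped.

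Pgk1 (chromosome X, 103382439 to 103399038, plus strand) encodes the kinase that takes the next step and transfers a phosphate to ADP. Its values were 54.3, 88.1, 80.4, 105 and 79.3 FPKM in wild-type, 66.6, 43.8 and 53.2 FPKM in Bcl11bm/m and 44.5, 61.5, 60.0 and 46.7 FPKM in cKO libraries. Wild-type replicate 1 lay among the mutant libraries, and the other 4 wild-type libraries were above all of them. The log2 differences were -0.56 (SE 0.218, adjusted p = 0.124) and -0.59 (SE 0.189, adjusted p = 0.063), short of the threshold. With median-ratio scaling they were -0.57 (adjusted p = 0.0253) and -0.48 (adjusted p = 0.0398) and passed it. Leaving out wild-type replicate 1 gave -0.70 (adjusted p = 0.025) and -0.73 (adjusted p = 0.0107).

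Eno1 (chromosome 4, 149610830 to 149622988, plus strand) encodes the enolase that makes phosphoenolpyruvate. It was at 95.2, 96.3, 125, 125 and 135 FPKM in wild-type, 67.1, 65.6 and 76.5 FPKM in Bcl11bm/m and 62.1, 115, 82.2 and 88.5 FPKM in cKO libraries. All Bcl11bm/m libraries were below all wild-type libraries, whereas cKO replicate 2 lay inside the wild-type range. The difference was -0.71 in Bcl11bm/m (SE 0.148, 95% interval -1.04 to -0.37, adjusted p = 0.0134) and -0.42 in cKO libraries (SE 0.187, 95% interval -0.84 to -0.0048, adjusted p = 0.158). Median-ratio scaling gave -0.71 (adjusted p = 0.00324) and -0.31 (adjusted p = 0.202). The Bcl11bm/m call was lost without Bcl11bm/m replicate 1 (adjusted p = 0.0527) or 2 (adjusted p = 0.0651). The Eno1 coding sequence has 4 further matches in the genome, at up to 99.6% identity. One is the listed gene Gm5506, at 8.42, 36.2, 20.04, 79.2 and 1.76 FPKM in wild-type, 25.1, 0.0089 and 2.71 FPKM in Bcl11bm/m and 13.9, 0.119, 11.2 and 0.280 FPKM in cKO libraries, a wide spread within each group. Summed with Gm5506, Eno1 differed from wild-type by -0.84 in Bcl11bm/m (adjusted p = 0.0290) and by -0.60 in cKO libraries (adjusted p = 0.0645).

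Ldha (chromosome 7, 54096845 to 54110997, plus strand) encodes the lactate dehydrogenase subunit that favours lactate formation. It was at 105, 170, 172, 222 and 141 FPKM in wild-type, 152, 107 and 123 FPKM in Bcl11bm/m and 118, 142, 203 and 116 FPKM in cKO libraries. Both mutant groups lay inside the wild-type range. The log2 differences were -0.32 (95% interval -0.86 to 0.22, adjusted p = 0.418) and -0.15 (95% interval -0.68 to 0.37, adjusted p = 0.697).

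Over the members, 2 of the 9 tested were called lower and 0 higher in Bcl11bm/m against wild-type, where 7.39% of all features tested were called lower and 9.92% higher. The same 2 were the members that lay below wild-type without overlap, as did 10.8% of all features, while 14.6% lay above. The members' median log2 difference was -0.13, beside -0.02 over all features. In cKO against wild-type 1 of 9 was called lower, against 9.86% of all features, and 0 higher, against 4.65%. Gapdh alone lay below without overlap, as did 10.6% of all features, and no member lay above, as did 5.44%. The median was -0.10 over the members and -0.09 over all features. At an unadjusted p under 0.05, 3 members (Gapdh, Pgk1 and Eno1) were lower and 0 higher in each of these comparisons. At that threshold 14.3% of all features were lower and 16% higher in Bcl11bm/m, and 20.3% lower and 10.3% higher in cKO libraries. Both use the same 5 wild-type libraries, and the share of members called is close to the background in the second.

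The mutants were compared directly to ask whether the hypomorph and the stage-specific deletion differed. None of the 9 members was called by limma in either direction (0 also at an unadjusted p under 0.05), where 7.63% of all features were higher and 2.6% lower in Bcl11bm/m (20.5% and 8.58% unadjusted). No member was separated between these groups, where 18.9% of features lay higher and 7.76% lower without overlap. The log2 difference of Gapdh was 0.13 with a 95% interval of -0.28 to 0.54. For Pgk1 it was 0.03 (-0.39 to 0.45) and for Eno1 -0.28 (-0.74 to 0.17). These intervals admit differences of moderate size in either direction.

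**Figure D2:**
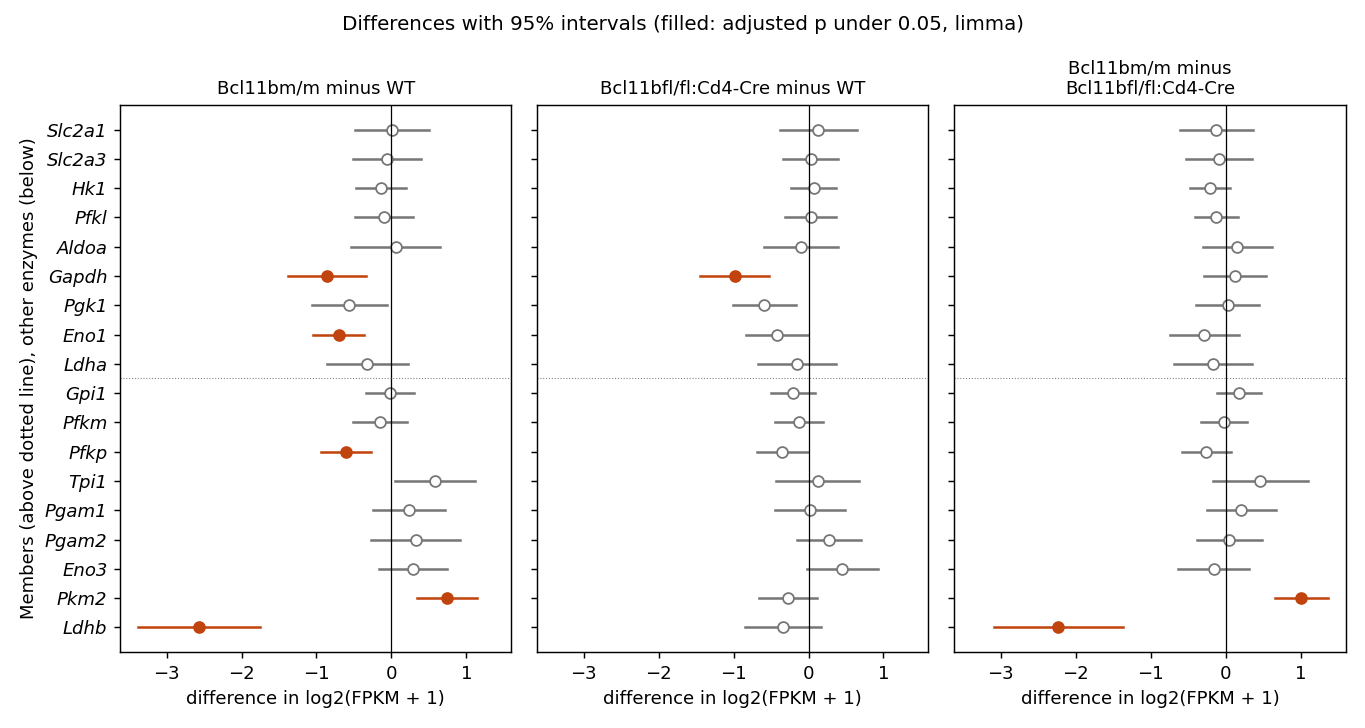
Difference in log2(FPKM + 1) (horizontal axis) with 95% intervals for the 9 tested members and the 9 other glycolysis enzymes that passed the filter, in the 3 comparisons, with filled points at an adjusted p under 0.05. Gapdh lies at -0.86 and -0.99 in the mutants against wild-type, and the points of Ldhb and Pkm2 are filled in both panels that hold Bcl11bm/m.

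Cell cycle genes differed in the same libraries as Gapdh. Of 14 listed cell cycle genes, 11 were lower in Bcl11bm/m (median log2 difference -1.16) and 14 were lower in cKO than in wild-type libraries (median -1.93), among them Ccnb1, a mitotic cyclin, at -1.49 and -2.28. Without Bcl11bm/m replicate 2 the former count was 5, and it was 6 without replicate 1 and 7 without wild-type replicate 2, 3, 4 or 5. Their summed level was 969 to 1332 FPKM in wild-type, 390 to 761 FPKM in Bcl11bm/m and 216 to 659 FPKM in cKO libraries, without overlap between wild-type and either mutant. Summed myeloid marker genes were at 12.2 to 20.7 FPKM in wild-type, 33.9 to 121 FPKM in Bcl11bm/m and 6.3 to 52.5 FPKM in cKO libraries. Of the 14 myeloid genes 7 passed the filter, and 3 of these were higher in Bcl11bm/m and 2 lower in cKO than in wild-type libraries. Of all features tested 9.92% were called higher and 7.39% lower in Bcl11bm/m, and 4.65% and 9.86% in cKO libraries. Thymic stroma genes, 12 in all, summed to 43.3 to 70.9 FPKM in wild-type, 150 to 172 FPKM in Bcl11bm/m and 89.1 to 144 FPKM in cKO libraries, so that wild-type was separated from both mutants here too. Most of that sum was Pecam1, an adhesion molecule of endothelial and blood cells, and without it the sums overlapped, at 6.33 to 9.04 FPKM, 7.71 to 11.3 FPKM and 8.25 to 16.8 FPKM. Of 5 stroma genes tested, Pecam1 and Pdgfrb were higher and Epcam lower in each mutant. The endothelial cadherin gene Cdh5 was at most 0.0966 FPKM, and the collagen gene Col3a1 was listed at 0 in 12 of 12 libraries. The monocyte gene Cd14 was at most 0.194 FPKM, and the thymic epithelial factor Foxn1 at most 0.0703 FPKM, in any library. The part of cycling cells or of other cell types in the Gapdh and Eno1 differences was not tested. In these bulk libraries, fewer cells of a type and less RNA per cell cannot be told apart.

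**Figure D3:**
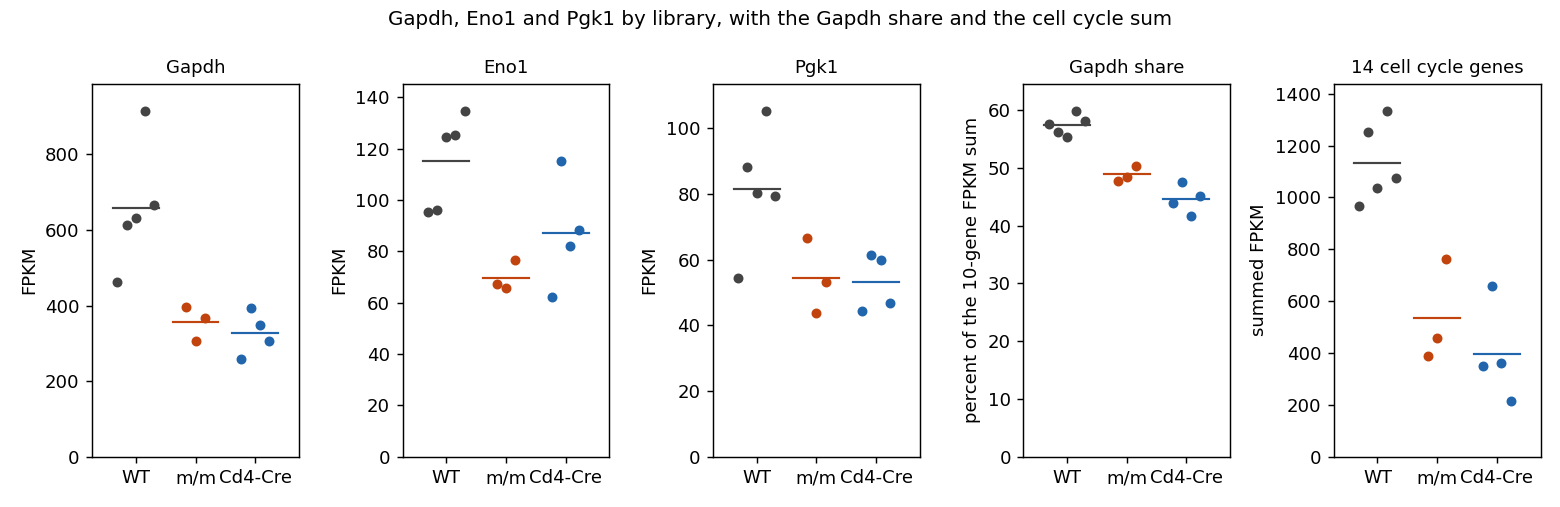
Values by library for Gapdh, Eno1 and Pgk1 (FPKM), for Gapdh as a percent of the summed FPKM of the 10 genes, and for the summed FPKM of 14 cell cycle genes, with points for libraries and lines for means (m/m, Bcl11bm/m; Cd4-Cre, cKO). Wild-type libraries lie above both mutants for Gapdh, its share (55.4 to 59.8%) and the cell cycle sum (969 to 1332 FPKM), and wild-type replicate 1 falls among the mutants for Pgk1.

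The remaining glycolysis enzymes were taken from a list of 18 genes, of which 9 averaged 1 FPKM or more. In Bcl11bm/m against wild-type 1 was higher and 2 were lower, beside 9.92% and 7.39% of all features tested. In cKO against wild-type none was called by limma, with Pfkp alone lower at an unadjusted p under 0.05 (log2 difference -0.35), and called without wild-type replicate 1 (-0.45, adjusted p = 0.0335). Between the mutants 1 was higher and 1 lower, beside 7.63% and 2.6% of all features. For cKO against wild-type these shares were 4.65% and 9.86%, with 20.3% lower at the unadjusted threshold. The isomerase Gpi1, the muscle phosphofructokinase Pfkm, the mutases Pgam1 and Pgam2 and the muscle enolase Eno3 were called in no comparison, with log2 differences between -0.21 and 0.45. Of these, Eno3 was called higher in cKO than in wild-type libraries when short RNAs were left out (adjusted p = 0.0488). It was called in none of the 7 other planned settings and in 0 of 9 fits without a library.

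Pfkp, the platelet-type phosphofructokinase, was lower in Bcl11bm/m (13.98 FPKM ± 0.701, n = 3) than in wild-type libraries (22.0 ± 3.42, n = 5), without overlap (log2 difference -0.61, SE 0.147, adjusted p = 0.0246). That call was lost without wild-type replicate 2, 3 or 5 or any Bcl11bm/m replicate (adjusted p = 0.0551 to 0.0993). Tpi1, the triose phosphate isomerase, averaged 45.7 ± 10.3 FPKM in Bcl11bm/m, as against 30.6 ± 7.79 FPKM in wild-type libraries, a log2 difference of 0.58 (adjusted p = 0.137, and 0.0403 with median-ratio scaling).

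Pkm2, the symbol under which the table lists the pyruvate kinase of non-hepatic tissues, was higher in Bcl11bm/m, where Gapdh and Eno1 were lower. It was at 135, 172, 202, 225 and 196 FPKM in wild-type, 325, 283 and 317 FPKM in Bcl11bm/m and 121, 153, 178 and 162 FPKM in cKO libraries. The Bcl11bm/m libraries were above all others. The log2 difference was 0.74 against wild-type (SE 0.174, adjusted p = 0.0213) and 1.01 against cKO libraries (SE 0.15, adjusted p = 0.0108). For cKO against wild-type it was -0.27 (adjusted p = 0.330). The first call was lost without wild-type replicate 2 or any Bcl11bm/m replicate (adjusted p = 0.0541 to 0.0757). A value per gene does not separate the splice forms PKM1 and PKM2. The coding sequence has 2 further genomic matches, at up to 94.9% identity.

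Ldhb encodes the lactate dehydrogenase subunit that favours pyruvate formation. It was at 247, 261, 310, 474 and 356 FPKM in wild-type and 251, 267, 184 and 332 FPKM in cKO libraries, but at 27.6, 78.0 and 69.3 FPKM in Bcl11bm/m. All Bcl11bm/m libraries lay below all others. The log2 difference was -2.57 against wild-type (SE 0.355, adjusted p = 0.00204) and -2.23 against cKO libraries (SE 0.370, adjusted p = 0.0152). The first call held in 8 of 8 fits that left out a library, and the second in 6 of 7, being lost without cKO replicate 1 (adjusted p = 0.0519).

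Within a library, Ldha made up 28.4 to 39.5% of the sum of Ldha and Ldhb in wild-type, 84.6, 57.7 and 63.9% in Bcl11bm/m and 25.9 to 52.4% in cKO libraries. Ldha was thus the more abundant subunit in 3 of 3 Bcl11bm/m, 1 of 4 cKO and 0 of 5 wild-type libraries. The sum of both was 351 to 695 FPKM in wild-type and 180 to 192 FPKM in Bcl11bm/m. The Ldha coding sequence has 8 further genomic matches (up to 96.0% identity) and that of Ldhb 1 (98.0%). Reads may have been divided among these as well. The difference of log2(FPKM + 1) between Ldha and Ldhb was 1.23 ± 1.05 (SD, n = 3) in Bcl11bm/m and -1.02 ± 0.292 (n = 5) in wild-type libraries, a difference of 2.25. It was 1.65 to 2.64 without single replicates, lowest without Bcl11bm/m replicate 1. The exact permutation p was 0.0357, the smallest this design allows, and 0.129 after adjustment over the 9 ratio tests. Against cKO libraries (-0.84 ± 0.700, n = 4) the difference was 2.07 (1.47 without Bcl11bm/m replicate 1), with an exact p of 0.0571, and 3 against 4 libraries allow no smaller value.

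**Figure D4:**
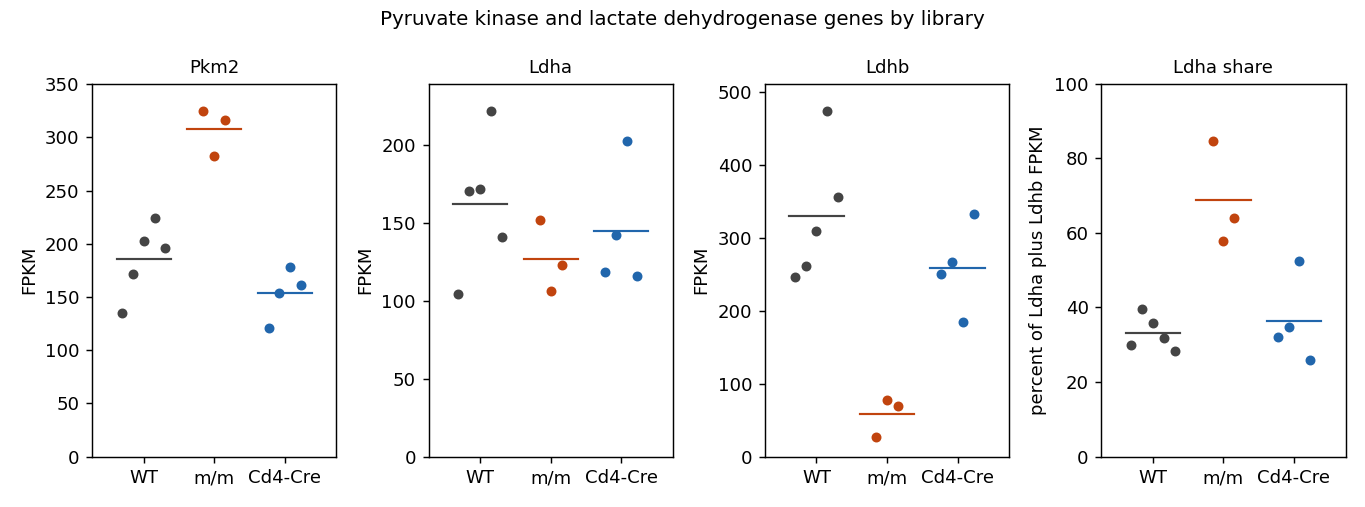
FPKM of Pkm2, Ldha and Ldhb, and Ldha as a percent of Ldha plus Ldhb FPKM, in each library, with points for libraries and lines for means (m/m, Bcl11bm/m; Cd4-Cre, cKO). In Bcl11bm/m libraries Ldhb lies at 27.6 to 78.0 FPKM and the Ldha share at 57.7 to 84.6%, while Ldha itself overlaps between groups.

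Promoters are shown for Gapdh, Eno1 and Pgk1, which were lower in mutant libraries or close to the threshold, and for Ldha and Ldhb, whose levels parted. Each run holds the 250 bases before the first start that RefSeq lists for the gene on GRCm38.p6, a later build than that of the positions above, read 5′ to 3′ on the gene's strand. Capitals mark the core of the hypoxia response element, ACGTG or GCGTG on either strand, which the E-box CACGTG contains.
Gapdh (chr6:125165774-125166023, minus strand): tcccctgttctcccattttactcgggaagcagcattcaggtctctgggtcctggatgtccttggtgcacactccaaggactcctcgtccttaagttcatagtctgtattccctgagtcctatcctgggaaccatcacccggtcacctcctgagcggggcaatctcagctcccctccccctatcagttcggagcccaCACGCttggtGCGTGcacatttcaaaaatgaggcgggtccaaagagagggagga
Eno1 (chr4:150236458-150236707, plus strand): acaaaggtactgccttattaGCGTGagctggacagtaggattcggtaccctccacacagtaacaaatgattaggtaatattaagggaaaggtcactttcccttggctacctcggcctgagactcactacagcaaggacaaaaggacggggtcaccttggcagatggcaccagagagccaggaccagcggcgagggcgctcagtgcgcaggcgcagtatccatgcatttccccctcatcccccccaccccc
Pgk1 (chrX:106186850-106187099, plus strand): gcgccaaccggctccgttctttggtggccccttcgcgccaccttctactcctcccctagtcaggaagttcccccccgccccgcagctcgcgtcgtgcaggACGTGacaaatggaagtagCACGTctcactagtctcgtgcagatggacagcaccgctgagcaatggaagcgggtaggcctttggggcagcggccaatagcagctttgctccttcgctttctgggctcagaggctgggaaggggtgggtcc
Ldha (chr7:46845554-46845803, plus strand): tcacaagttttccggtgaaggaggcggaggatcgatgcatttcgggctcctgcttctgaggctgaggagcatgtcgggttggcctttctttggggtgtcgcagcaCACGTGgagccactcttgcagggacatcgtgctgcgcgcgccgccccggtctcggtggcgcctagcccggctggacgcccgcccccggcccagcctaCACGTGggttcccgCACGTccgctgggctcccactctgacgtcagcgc
Ldhb (chr6:142507958-142508207, minus strand): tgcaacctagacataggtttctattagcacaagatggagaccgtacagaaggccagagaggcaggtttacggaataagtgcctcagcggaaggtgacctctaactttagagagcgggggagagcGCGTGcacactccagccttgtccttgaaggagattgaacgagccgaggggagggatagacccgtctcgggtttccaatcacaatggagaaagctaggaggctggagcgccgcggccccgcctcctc

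The core occurred 2 times in the Gapdh, 1 time in the Eno1, 2 times in the Pgk1, 5 times in the Ldha and 1 time in the Ldhb window. In Ldha, 4 of the 5 matches are the E-box CACGTG read on both strands at 2 places. RefSeq windows were matched for 9 of the 10 members, and Slc2a3 had none. Members had 15 windows for 9 genes, more per gene than the 32851 windows of 27025 genes in all. The core was present in 13 of the 15 windows, beside 38.6% of all windows, and for 9 of the 9 genes, beside 41.5% of all genes. The form ACGTG alone was present for 5 of 9 members (Aldoa, Hk2, Ldha, Pgk1 and Slc2a1) and 18.5% of genes, and CACGTG for 1 of 9 and 6.86% of genes. These matches describe letters in a window, and their relation to the expression differences was not tested.

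Genes of the hypoxia response outside glycolysis were followed through a list of 24, of which 19 were tested. In Bcl11bm/m against wild-type 3 were lower, namely the prolyl hydroxylase subunit P4ha1 (log2 difference -0.87, adjusted p = 0.00515), the ankyrin repeat gene Ankrd37 (-1.69, adjusted p = 0.00589) and the Myc antagonist Mxi1 (-1.16, adjusted p = 0.00939). Epas1, which encodes the alternative factor HIF-2α, was higher (1.16, adjusted p = 0.00778). These calls held in 8 of 8 fits without a library. The list's median was -0.07. Of all features tested 7.39% were lower and 9.92% higher in this comparison. For cKO against wild-type these shares were 9.86% and 4.65%, and between the mutants 2.6% and 7.63%. In cKO libraries Hif1a alone was lower, at 24.0 ± 2.29 FPKM (n = 4) against 33.3 ± 5.27 FPKM (n = 5) (log2 difference -0.45, adjusted p = 0.0495). This call held under 0 of 3 other scalings and in 3 of 9 fits without a library. Between the mutants P4ha1 (-0.67) and Mxi1 (-0.71) were lower and Hif1a (0.43) and Epas1 (0.99) higher in Bcl11bm/m. Of 7 fits without a library these calls held in 6, 4, 1 and 1, in that order, and that of Hif1a held under 0 of 3 other scalings.

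Myc, nutrient uptake and blast genes were tested for 19 of 22 listed. In Bcl11bm/m against wild-type 4 were higher and 0 lower, beside 9.92% and 7.39% of all features tested. For cKO against wild-type these shares were 4.65% and 9.86%, and between the mutants 7.63% and 2.6%. Myc averaged 38.8 ± 13.5 FPKM (n = 3) in Bcl11bm/m, as against 9.47 ± 1.69 FPKM (n = 5) in wild-type libraries (log2 difference 1.89, adjusted p = 0.000919). The transferrin receptor Tfrc (0.93, adjusted p = 0.00199) and Rptor, a subunit of mTOR complex 1 (0.75, adjusted p = 0.0031), were also higher, and these 3 calls held in 8 of 8 fits without a library. The remaining one, the kinase subunit gene Pik3cd (0.81, adjusted p = 0.0357), held in 3 of 8. In cKO libraries Rptor was higher (0.43, adjusted p = 0.0347) and Ncl, the nucleolar protein nucleolin, lower (-0.74, adjusted p = 0.00777), calls that held in 3 of 9 and 9 of 9 such fits. Between the mutants 4 were higher in Bcl11bm/m, namely Myc (1.72, adjusted p = 0.0138), Tfrc (1.002), Ncl (0.63) and the polyamine enzyme gene Odc1 (0.76). The first and second of these held in 7 of 7 such fits, Ncl in 3 and Odc1 in 0, and Odc1 held under 1 of 3 other scalings.

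Genes at the exits from glycolysis were taken from further lists. Among 4 tested of 13 other hexose and lactate transporters, Slc16a1, the lactate and pyruvate carrier MCT1, was lower in cKO than in wild-type libraries (16.7 ± 2.65 FPKM, n = 4, against 40.0 ± 10.8 FPKM, n = 5, log2 difference -1.18, adjusted p = 0.00804). Of 13 tested regulators of flux 2 were lower in the same comparison, Pdk1, the kinase that holds pyruvate dehydrogenase inactive (-1.17, adjusted p = 0.00626), and Pdp1, the phosphatase that reactivates it (-0.58, adjusted p = 0.0358). In Bcl11bm/m libraries Pdp1 was instead higher than in wild-type (0.78, adjusted p = 0.0151), and between the mutants Slc16a1 (0.79), Pdk1 (0.997) and Pdp1 (1.36) were higher and Txnip, an inhibitor of glucose uptake, lower (-1.03) in Bcl11bm/m. The cKO calls of Slc16a1 and Pdk1 against wild-type held in 9 of 9 fits without a library, and that of Pdp1 in 1 of 9. The Pdp1 call in Bcl11bm/m held in 6 of 8. Between the mutants Pdk1 and Pdp1 held in 7 of 7, Txnip in 5 of 7 and Slc16a1 in 1 of 7. Together 3 of these 17 genes were called in cKO against wild-type, where 9.86% of all features were lower and 4.65% higher. In Bcl11bm/m against wild-type 7.39% of all features were lower and 9.92% higher, and between the mutants 2.6% and 7.63%.

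Of 13 tested genes of the pentose phosphate and serine branches, Rpia, the ribose phosphate isomerase, was lower in both mutants against wild-type (log2 differences -0.91, adjusted p = 0.0245, and -1.07, adjusted p = 0.00582). Pgd, the oxidative dehydrogenase of the pentose branch, was higher in Bcl11bm/m (0.74, adjusted p = 0.0183). Phgdh and Psat1, the first enzymes of serine synthesis, were lower in cKO libraries (-0.97, adjusted p = 0.0248, and -0.99, adjusted p = 0.0326), and each call held in 3 of 9 fits without a library. Between the mutants 0 of these 13 genes were called by limma, with 2 higher in Bcl11bm/m at an unadjusted p under 0.05. At that threshold 20.5% of all features were higher. The Rpia call held in 4 of 8 fits without a library in Bcl11bm/m and in 9 of 9 in cKO libraries, and the Pgd call in 5 of 8. Of all features tested 7.39% were called lower and 9.92% higher in Bcl11bm/m against wild-type, and 9.86% and 4.65% in cKO libraries.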

How the data were processed

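RNA-seq libraries of thymocytes were compared as 5 wild-type, 3 Bcl11bm/m and 4 Bcl11bfl/fl:Cd4-Cre (cKO) libraries, grouped by sample title. The authors mapped reads with tophat2, estimated FPKM per gene with cufflinks on an iGenome annotation and deposited an FPKM table without stated scaling between libraries. The submitters' processing notes name TopHat2 2.8.0, Cufflinks 2.1.1 and mm9. The extraction protocol in the labels and the study's methods describe different library kits, so the chemistry and strandedness are uncertain.

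Values were taken as log2(FPKM + 1), so that differences of low genes are understated. Those averaging 1 FPKM or more over the libraries (10780 of 23234 features) were compared 2 groups at a time with limma 3.58.1 in R 4.3.3 (lmFit, eBayes with a trend), two-sided, with Benjamini-Hochberg adjustment over all features and a threshold of 0.05. The ratios of Slc2a3 to Slc2a1, Hk2 to Hk1 and Ldha to Ldhb were tested by exact permutation. Positions are from GENCODE vM1 on NCBIM37 (mm9), and genomic copies were found by aligning coding sequences with minimap2 2.31 (at least 90% identity over 50% of the length). Besides Gapdh and Eno1, copies were found for Aldoa (4), Pgk1 (2), Ldha (8), Tpi1 (1), Pgam1 (3), Pkm2 (2) and Ldhb (1). Sums with copies were run for Gapdh and Eno1 alone. Promoter sequences are from RefSeq on GRCm38.p6. Depth was estimated from the steps between low FPKM values, of which 66.2 to 72.1% lay near whole steps against 20% if spread evenly. Median-ratio scaling divides each library by its median ratio to the gene-wise geometric mean over 11750 genes.

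The genes named were the 10 members, the other glycolysis enzymes that passed the filter, Bcl11b, and up to 3 genes per further list and comparison with the smallest adjusted p-values under 0.05. Gm12070, Gm5506, Cd4, Cd8a, Rag1, Cd14, Foxn1, Cdh5, Col3a1, Cd69, Pik3cd, Odc1, Mpeg1, Csf3r and, in the lists, genes named for a second comparison were added, some after their values were seen. The members and the 13 further lists were chosen with earlier results of these data known. Alternatives were quantile normalization, median-ratio scaling, rescaling without short RNAs (7.02 to 17.08% of FPKM), a pseudocount of 0.1, no filter or a minimum of 5 FPKM, a fit of all 3 groups, a block for the replicate number and the omission of each replicate. Sums with listed copies, and median-ratio scaling without wild-type replicate 1 or cKO replicate 3, were chosen after seeing the data. The limma step was also run on simulated data with independent noise and planted changes larger than the members' differences. Such a run does not test the calls reported here. Tables and figures were made in Python 3.11.15 (numpy 2.4.6, pandas 2.3.3, matplotlib 3.10.9).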

Additional observations from a re-analysis of the deposited data

Results flagged for a closer look

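Hk2 in cKO replicate 3, at 0.750 FPKM, and Tpi1 in the same library, at 52.8 FPKM, stood far above the other 3 libraries of their group. Of 44 groups of values checked in this way 2 had such a library, where chance alone gives about 2.20.

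The 2 mutants differed from each other in Pkm2 (log2 difference 1.01, Bcl11bm/m higher) and in Ldhb (log2 difference -2.23, Bcl11bm/m lower), by the direct limma comparison of Bcl11bm/m with cKO libraries. The groups are newborn and of unstated age, respectively, and genotype, age and depth cannot be told apart in this comparison.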

How the results depend on the processing

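Gapdh and Eno1 kept the direction of their difference from wild-type in both mutants under every alternative run, and the sign changes below were all of differences not called. Estimated depth limits Hk2, Slc2a3 and other genes near 1 FPKM most, and least in cKO libraries. Over all features the median difference shifted by -0.10 between the mutants with median-ratio scaling, and by 0.13 in cKO against wild-type when rescaled without short RNAs. The cause of the changes below was not tested, apart from the smaller number of libraries or features that some settings leave.

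The number of members called lower in Bcl11bm/m against wild-type was 2, and 3 with median-ratio scaling (also without wild-type replicate 1), quantile normalization or rescaling without short RNAs, 1 without a filter, 0 with a replicate block and 0 to 3 without single replicates. In cKO against wild-type it was 1, and 2 with median-ratio scaling (also without wild-type replicate 1), quantile normalization, rescaling without short RNAs or all 3 groups in a fit, 0 with a replicate block and 0 to 2 without single replicates. The member gained under these settings was Pgk1 in both.

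Replicate numbers were not shown to pair libraries, since correlations of deviations between groups ran from -0.21 to 0.15. The block used only libraries whose replicate number occurs in both groups, and left out the others. With the replicate number as a block, the difference from wild-type was -0.67 for Gapdh (adjusted p = 0.313) and -0.58 for Eno1 (adjusted p = 0.140) in Bcl11bm/m, and -0.97 for Gapdh in cKO libraries (adjusted p = 0.0535). The calls of Pfkp (adjusted p = 0.253), Pkm2 (0.151) and Ldhb (0.0544) in Bcl11bm/m against wild-type, and of Pkm2 (0.125) and Ldhb (0.112) between the mutants, were also lost. Their log2 differences under the block were -0.535, 0.873 and -2.33 against wild-type, and 1.041 and -2.099 between the mutants. The block called 211 features higher and 82 lower in Bcl11bm/m (1069 and 797 without it), 162 and 283 in cKO (501 and 1063), and 30 and 16 between the mutants (822 and 280). It called 0 of 14 cell cycle genes in Bcl11bm/m and 7 in cKO libraries. In the 5 lists of transporters, flux regulators, branches, hypoxia and Myc genes, calls fell from 11 to 0 in Bcl11bm/m (every hypoxia and Myc call among them), from 9 to 3 in cKO and from 12 to 1 between the mutants, and in the 6 cell type lists from 21 to 5, 14 to 8 and 9 to 0. Its sign changes were for Slc2a3 (0.106) and Gpi1 (0.082) in Bcl11bm/m, Pfkl (-0.022) and Pgam1 (-0.027) in cKO, and Pgk1 (-0.026) and Pfkm (0.055) between the mutants.

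Other counts over all features moved as follows. In Bcl11bm/m against wild-type 622 were higher with a minimum of 5 FPKM, 1257 lower with quantile normalization and 1258 lower with median-ratio scaling without wild-type replicate 1. In cKO against wild-type 834 were higher with median-ratio scaling, 790 with quantile normalization, 969 without short RNAs and 1044 with median-ratio scaling without wild-type replicate 1, and 546 were lower with median-ratio scaling without cKO replicate 3. Between the mutants 476 were higher and 180 lower with a minimum of 5 FPKM, and 531, 491 and 462 lower with median-ratio scaling, quantile normalization and median-ratio scaling without cKO replicate 3. Without single replicates the counts higher and lower were 659 to 1132 and 362 to 1217 in Bcl11bm/m, 228 to 622 and 472 to 2056 in cKO, and 232 to 836 and 80 to 285 between the mutants. Of the 14 cell cycle genes, 7 were called in Bcl11bm/m without a filter or with all 3 groups in a fit.

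Sign changes under other settings, in Bcl11bm/m against wild-type, were for Slc2a1 (-0.041) and Gpi1 (0.095) with quantile normalization, Slc2a3 (0.010) and Gpi1 (0.076) without short RNAs, and Slc2a1 (-0.096) and Aldoa (-0.033) with median-ratio scaling without wild-type replicate 1. In cKO against wild-type they were for Aldoa with median-ratio scaling (0.008), quantile normalization (0.040) and no short RNAs (0.052), Ldha with quantile normalization (0.003), Pfkm without short RNAs and with median-ratio scaling without cKO replicate 3 (0.013 in both), and Pgam1 in the latter (-0.032). Between the mutants they were for Pgk1 (-0.085, -0.022, -0.023 and -0.028 with median-ratio scaling, quantile normalization, no short RNAs and median-ratio scaling without cKO replicate 3) and Pgam2 (-0.053, -0.105 and -0.013 with the first, second and last of these). For the ratio of Hk2 to Hk1 in cKO a pseudocount of 0.1 gave 0.117, and for Slc2a3 to Slc2a1 between the mutants quantile normalization gave -0.041.

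Leaving out single replicates gave ranges that span 0 in Bcl11bm/m for Slc2a1 (-0.146 to 0.090), Slc2a3 (-0.238 to 0.069), Aldoa (-0.137 to 0.213), Gpi1 (-0.114 to 0.033) and the ratio of Slc2a3 to Slc2a1 (-0.200 to 0.065). In cKO they were Slc2a1 (-0.022 to 0.248), Slc2a3 (-0.052 to 0.115), Hk1 (-0.021 to 0.12), Pfkl (-0.049 to 0.106), Aldoa (-0.241 to 0.058), Pgam1 (-0.142 to 0.112), Tpi1 (-0.110 to 0.234), and the ratios of Slc2a3 to Slc2a1 (-0.245 to 0.114), Hk2 to Hk1 (-0.123 to 0.078) and Ldha to Ldhb (-0.142 to 0.408). Between the mutants they were Slc2a1 (-0.240 to 0.017), Slc2a3 (-0.270 to 0.037), Aldoa (-0.037 to 0.283), Pgk1 (-0.122 to 0.174), Ldha (-0.300 to 0.008), Pfkm (-0.110 to 0.055), Pgam2 (-0.166 to 0.219) and the ratio of Slc2a3 to Slc2a1 (-0.182 to 0.178).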

Other observations

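Markers of thymocyte stage also differed between the libraries. Of all features tested 7.39% were called lower and 9.92% higher in Bcl11bm/m against wild-type, and 9.86% and 4.65% in cKO libraries. Of 14 pre-selection genes 7 were lower in Bcl11bm/m than in wild-type libraries, among them Ptcra, the pre-T cell receptor chain (log2 difference -2.22, adjusted p = 0.000758 by limma), Cd4 (-0.99) and Cd24a (-1.15), and 2 were lower in cKO libraries, Cd24a (-1.15) and Themis (-0.47). The Themis call held under 0 of 3 other scalings and in 3 of 9 fits without a library. Of 10 post-selection genes 5 were higher and 3 lower in Bcl11bm/m. The cytokine receptor chain Il7r was at 17.1 ± 7.51 FPKM (n = 3) in Bcl11bm/m, 4.01 ± 3.52 FPKM (n = 4) in cKO and 0.0475 ± 0.0404 FPKM (n = 5) in wild-type libraries. The gut-homing receptor gene Ccr9 (-1.75) and the early response gene Nr4a1 (-1.94) were lower in Bcl11bm/m. In cKO libraries 4 of the 10 were higher and 2 lower (median log2 difference -0.045). Klf2 (2.23) and the integrin gene Itgb7 (2.95) were among the former. The early activation gene Cd69 (-1.46) and Ccr9 (-1.43) were lower, calls that held in 3 and 2 of 9 fits without a library.

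The myeloid adaptor genes Tyrobp (2.71) and Fcer1g (2.86) were higher in Bcl11bm/m than in wild-type libraries, and Lyz2 (-2.05) was lower in cKO libraries. Between the mutants, 2 of 3 erythroid genes tested were higher in Bcl11bm/m, the globin genes Hba-a1 (2.45) and Hbb-b2 (2.26). These calls held in 5 and 3 of 7 fits without a library. Of 7 myeloid genes tested, 4 were higher in Bcl11bm/m than in cKO libraries, namely Lyz2 (3.30), Tyrobp (2.84), Mpeg1 (1.70) and Csf3r (0.56). They held in 6, 1, 7 and 3 of 7 such fits, in that order. Of all features 7.63% were higher and 2.6% lower in this comparison. Of 4 B cell genes tested, Cd79a was higher in cKO libraries (1.02), and none was called in Bcl11bm/m against wild-type by limma, where 1 was higher and 1 lower at an unadjusted p under 0.05. At that threshold 16% of all features were higher and 14.3% lower. Of the stromal list, Pecam1 (1.48 and 0.96) and the pericyte gene Pdgfrb (1.58 and 2.27) were higher in Bcl11bm/m and cKO against wild-type, and the epithelial gene Epcam was lower (-1.61 and -1.18). Values after each gene are log2 differences with an adjusted p under 0.05.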
